A study of Mus musculus with 26 samples.

Results

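Among the 26 liver RNA libraries of this series, 10 are from males, and the measurements below compare 3 of these livers, which carried transcripts of B-lineage cells, with the other 7. The 10 libraries were grouped by 1 measured value. A liver was called infiltrated when Cd79a, the gene of a signalling chain of the B cell receptor, stood at 8 CPM or more (its count scaled to a common library total), and clean when it stood below that limit. The infiltrated livers were numbers 3 and 5 under 12:12 lighting and number 8 under chronic jet lag (CJL). The clean livers were numbers 1, 2, 4 and 6 under 12:12 lighting and numbers 5, 6 and 7 under CJL.

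All mice were Eu-MYC transgenics, which carry MYC under the enhancer of the immunoglobulin heavy chain, so that the oncogene is active in the B lineage. No library of this series came from a mouse without the transgene. The mice lived for 8 weeks under CJL, or under 12 h of light and 12 h of dark, for which the labels give no duration. Livers were profiled by stranded mRNA sequencing. The sources used here give neither age, state of health nor the hour of collection.

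In Eu-MYC mice, precursor and immature B cells are driven to grow and divide, and lymphomas of these cells can spread to the liver. MYC raises the expression of genes for ribosome assembly, nucleotide synthesis and the cell cycle. The liver itself is one of the most sex-dimorphic organs of the mouse. Male rodents secrete growth hormone in pulses, which through STAT5B sustain male-biased genes such as the major urinary proteins, and the more continuous secretion of females sustains another set, among them Cyp2b genes.

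The value that chose the groups was 45.6, 26.2 and 144 CPM of Cd79a in 12:12 number 3, 12:12 number 5 and CJL number 8, and 1.28 to 2.42 CPM (median 1.84) in the clean livers. The nearest values on either side of the limit were 26.2 CPM inside and 2.42 CPM outside, and no liver lay between them. Male libraries held 45364557 to 49264917 counts, so that 3 counts stood for at most 0.0661 CPM. Every male library carried Y-linked transcripts (Eif2s3y 41.8 to 58.3 CPM in the clean livers and 51.8, 47.8 and 49.7 in the infiltrated ones) and at most 0.607 CPM of Xist. Albumin, the main protein secreted by hepatocytes, stood at 100046 to 124349 CPM in the clean livers and at 177829, 128931 and 221242 CPM in the infiltrated ones, so all 10 samples were liver by this marker. A clean library, CJL number 7, stood apart: genes with transcripts of at least 6000 bases lay at a median of -0.997 on the log2 scale against the median of the other clean males, and genes of at most 1500 bases at 0.49. The other 9 males lay between -0.10 and 0.21 for the long transcripts. In bulk tissue, fewer cells of a type and less RNA per cell cannot be told apart.

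B-lineage genes are given without a test, since their own receptor gene chose the groups. Pax5, which commits cells to the B lineage, stood at 9.54, 4.16 and 24.2 CPM in the infiltrated livers and at 0.176 to 0.532 CPM (median 0.264) in the clean ones. Cd79b, the partner chain of Cd79a, stood at 32.6, 15.0 and 68.8 CPM against at most 2.21 CPM in a clean liver. Ighm, the IgM heavy chain, reached 187, 51.0 and 584 CPM, against 8.42 to 25.4 CPM (median 14.6). Jet-lagged number 8 was the highest of the 3 for each of these genes and 12:12 number 5 the lowest, and no clean liver overlapped them. Among the 20 tested genes of a list for B cell identity, 16 were higher in all 3 infiltrated livers than in any clean one. Cr2, a complement receptor of mature B cells, and Blk, a kinase of the B lineage, had log2 fold changes below 0.

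The 3 infiltrated livers did not carry the same B-lineage profile. Set against Cd79a, with the clean median subtracted from both, the excess of Myc was 2.49, 1.83 and 2.04 per unit of Cd79a in the order given above. The ratio of Mki67 was 2.66, 2.06 and 2.11, and that of Pax5 was 0.212, 0.160 and 0.168. Counts are not scaled by length here, so a ratio compares the livers and not the genes. Across the livers these 3 ratios differed by 1.36-fold, 1.29-fold and 1.33-fold. Ms4a1, which encodes CD20, was at 8.38, 1.24 and 3.13 CPM, so that the liver with the most Cd79a was not the one with the most Ms4a1. Il7r, the receptor of the growth factor of early B cells, was at 1.59, 0.386 and 17.6 CPM, and Lef1, a factor of precursor B and T cells, at 0, 0.244 and 9.28 CPM. Igll1, a part of the surrogate light chain of pre-B cells, was at 0.186, 0 and 3.39 CPM. The early-stage transcripts Il7r, Lef1 and Igll1 were therefore prominent in CJL number 8 and near the clean level in 12:12 number 5. The recombinase gene Rag1 was at or below 0.123 CPM in every male liver. Vpreb3 (19.8, 6.80 and 51.9 CPM, against 0.287 to 0.670 in clean livers) and Myb (19.8, 7.96 and 71.03, against 0 to 0.255) were high in all 3. The genes of this paragraph other than Myc, Mki67, Pax5, Vpreb3 and Myb were singled out after their values were seen.

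**Figure D1:**
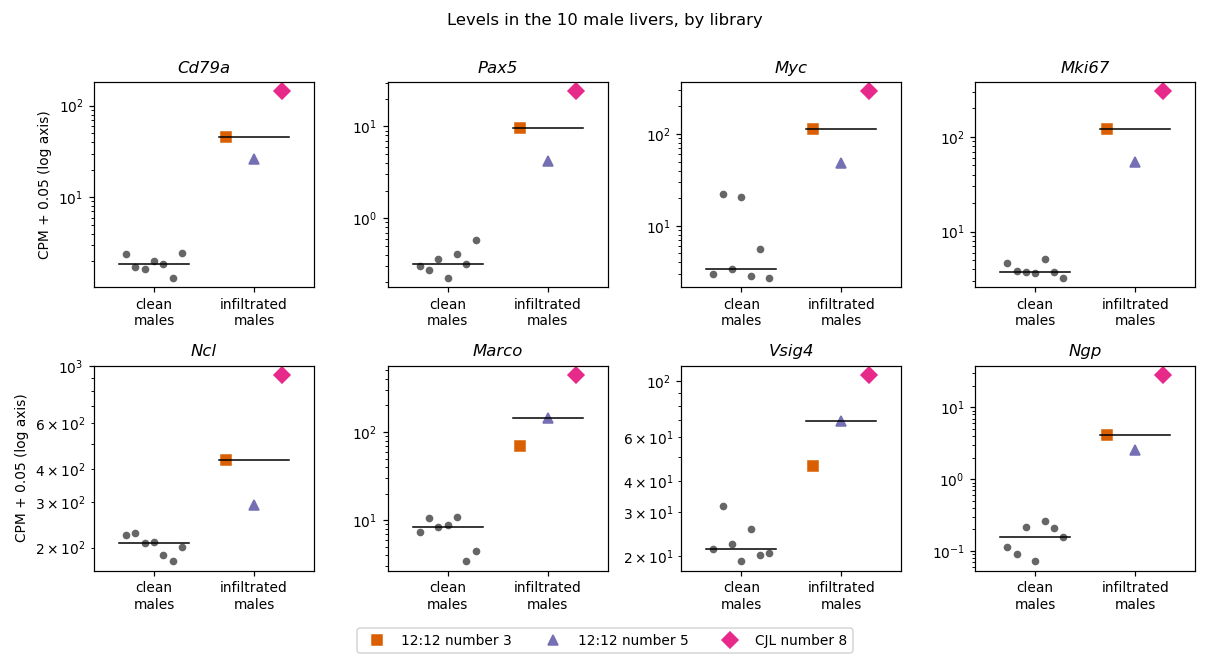
Levels of 8 genes in the 10 male livers, in CPM plus 0.05 on a log axis. Grey points are the 7 clean livers, coloured symbols the 3 infiltrated livers, and lines the group medians. Every infiltrated liver lies above every clean liver for each of the 8 genes, and the order of the 3 differs for Marco and Vsig4.

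Across all genes, 2617 of 16454 tested differed between infiltrated and clean male livers (edgeR quasi-likelihood test with lighting as covariate, Benjamini-Hochberg adjusted p under 0.05). Of these 2173 were higher, which is 13.2% of the genes tested, and 444 were lower, which is 2.70%. Without regard to the test, 15.5% of the tested genes were higher in all 3 infiltrated livers than in any clean liver, and 1.67% were lower in all 3. Each library is labelled with its own mouse number, and the p-values measure the spread between these samples. The count rested on single livers: it was 642 without CJL number 8, 1583 without 12:12 number 3, 4390 without 12:12 number 5 and 2921 without the clean CJL number 7. Within 12:12 lighting alone 748 genes passed, and within CJL alone, where 1 infiltrated liver met 3 clean ones, 2260 did.

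Myc itself, at chr15:61985341-61990361 in the RefSeq annotation of GRCm38.p6, was at 112, 47.8 and 293 CPM in the infiltrated livers and at 2.68 to 22.4 CPM (median 3.32) in the clean ones. Clean numbers 2 and 6 under 12:12 lighting held 22.4 and 20.3 CPM and the other 5 clean livers at most 5.50, so the clean group was itself uneven. The infiltrated livers were higher by 4.20 ± 0.86 on the log2 scale (± SE, adjusted p = 0.0087), and by 2.57 (adjusted p = 0.15) without CJL number 8. Reads from the transgene and from the resident gene are not separated in a count per gene name. The transgene is active in the B lineage and Cd79a chose the groups, so the p-values of Myc are a description only. Of 13 genes of the MYC network, 3 rose and 2 fell, against 13.2% and 2.70% of all genes. Mxd3, a MAX partner expressed in dividing cells, rose by 2.95 ± 0.44 (adjusted p = 0.00086). Mxd4, an antagonist of MYC found in resting cells, fell by 0.62 on the log2 scale (adjusted p = 0.026), and Mlxipl, the carbohydrate-sensing factor ChREBP of hepatocytes, fell by 1.12 (adjusted p = 0.019). These 3 calls were lost without CJL number 8, and the 2 falls also without number 3.

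Most genes of ribosome assembly and growth rose, with a smaller median than those of the cell cycle. In this list 18 of 27 tested genes passed as higher and none as lower, against 13.2% and 2.70% of all genes. The median log2 fold change was 0.83, against 0.00 for all genes tested. Ncl, the nucleolar protein nucleolin, was at 433, 291 and 922 CPM in the infiltrated livers and at 177 to 228 CPM (median 208) in the clean ones. Each infiltrated liver exceeded every clean one, by 1.18 ± 0.25 in the fit (adjusted p = 0.0085). Cad, which starts pyrimidine synthesis, stood at 68.7, 29.8 and 113 CPM against 9.68 to 24.4 and rose by 1.81 ± 0.32 (adjusted p = 0.0029). Ddx21 (1.19 ± 0.21, adjusted p = 0.0027), an RNA helicase of the nucleolus, and Dkc1 (1.43 ± 0.26, adjusted p = 0.0036), which modifies ribosomal RNA, rose as well. Ldha, which makes lactate, did not pass (632, 584 and 789.9 CPM against 477 to 794 in clean livers). None of the 27 passed without CJL number 8, where the median was 0.46, and 9 passed when libraries were scaled on hepatocyte genes.

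Cell cycle genes were higher in the infiltrated livers almost without exception. Of 31 tested, 30 rose and none fell, with a median log2 fold change of 3.80, and 30 were higher in every infiltrated liver than in any clean one. Of all genes 13.2% rose, 2.70% fell and 15.5% were higher in every infiltrated liver. Mki67, the proliferation antigen Ki-67, was at 119.8, 53.9 and 304 CPM in the infiltrated livers and at 3.23 to 5.15 CPM (median 3.69) in the clean ones. It rose by 5.02 ± 0.32 (adjusted p = 8.9e-06). Top2a, which untangles replicated DNA, stood at 70.1, 33.6 and 202 CPM against 1.96 to 3.43 and rose by 4.86 ± 0.33 (adjusted p = 8.9e-06). Log2 fold changes in the list ranged from 0.11 to 5.23. Ube2c, of the anaphase-promoting complex, rose by 5.02, Cenpf, a kinetochore protein, by 4.83, Mcm2, of the replicative helicase, by 2.87, and Pcna, the sliding clamp, by 1.29 (adjusted p = 8.9e-06, 8.9e-06, 4.8e-05 and 0.0046). The exception was Tk1, thymidine kinase (14.0, 15.96 and 14.2 CPM against 10.3 to 14.5 in clean livers, log2 fold change 0.11 ± 0.17, adjusted p = 0.69). Without CJL number 8, 25 of the 31 passed, and within 12:12 lighting 27. Of all genes tested, 642 of 16089 and 748 of 15774 passed in these fits. Pcna was among those lost without CJL number 8. Cd79a, which set the groups, was measured in the same RNA, so transcripts of the same cells are not independent of the grouping. B-lineage and cell cycle transcripts moved together in these livers, and which cells carried the cell cycle transcripts was not tested.

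The genes with the smallest p outside the B cell, plasma cell, MYC, ribosome and proliferation lists included further genes of the cell cycle and of lymphoid cells. E2f2, a transcription factor of the cell cycle, was at 7.72, 4.75 and 29.5 CPM against 0.406 to 1.13 in clean livers (4.08 ± 0.25, adjusted p = 8.9e-06). Bcl11a, a factor of early lymphoid cells, rose by 4.22, Fcho1, of clathrin-coated pits, by 4.97, and Phgdh, the first enzyme of serine synthesis, by 5.76. Phgdh stood at 3.83, 1.85 and 14.5 CPM against at most 0.251 CPM in a clean liver. Spag5 and Espl1, both of the mitotic spindle and chromosome separation, rose by 4.12 and 5.10. Fam129c, BC030867 and Mns1 completed the 10 with Ngp, and each of the 10 passed with an adjusted p of at most 8.9e-06 and in every fit with 1 library left out. Transcripts of the cells that carry Cd79a are not independent of the grouping. For lymphoid genes such as Bcl11a these p-values are therefore a description only. Which of the 10 genes came from those cells was not tested.

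Among 15 tested genes of the p53 and ARF pathway, 2 rose and none fell, a share near the 13.2% of all genes that were higher. Cdkn2a, the locus of p16INK4a and of the p53 activator ARF, was at 5.76, 0.589 and 1.31 CPM against 0 to 0.0812 in clean livers (6.48 ± 0.81, adjusted p = 0.00024). Its highest level was in 12:12 number 3 and not in CJL number 8, the liver with the most Cd79a. Trp53 rose by 0.64 ± 0.15 (adjusted p = 0.013), whereas the p53 targets Cdkn1a (1.79, adjusted p = 0.086) and Pmaip1 (1.91, adjusted p = 0.095) did not pass. Of 11 genes of the BCL2 family 2 rose, again not far from that share, the survival gene Bcl2a1b (1.45, adjusted p = 0.013) and the death-promoting Bcl2l11, which encodes BIM (1.55, adjusted p = 0.030). The calls of Trp53, Bcl2a1b and Bcl2l11 were lost without CJL number 8, and that of Bcl2l11 also without the clean livers 12:12 number 4, CJL number 5 or CJL number 6. Cdkn1a passed without 12:12 number 5 or CJL number 6.

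Transcripts of neutrophils and of macrophages were higher in the same livers. All 11 tested neutrophil genes rose, against 13.2% of all genes, with a median of 4.24. Their summed level was 42.0, 21.7 and 211 CPM against 3.57 to 7.29 in the clean livers. Ngp, a granule protein made by developing neutrophils, was at 4.12, 2.52 and 28.3 CPM against 0.0220 to 0.209 CPM (median 0.106) (6.28 ± 0.42, adjusted p = 8.9e-06). Mpo, myeloperoxidase, another product of immature granulocytes, stood at 1.12, 1.18 and 10.4 CPM against at most 0.101 CPM. Its fitted rise of 7.04 ± 0.80 is given without a test. No clean liver reached the filter's minimum of 10 counts for Mpo, so it passed the filter on low counts only through the infiltrated livers. Mpo is counted among the 11. S100a9, the calprotectin subunit abundant in mature neutrophils, was at 12.5, 5.06 and 77.5 CPM against 0.251 to 1.83 (4.19 ± 0.65, adjusted p = 0.0011). Early and late granule genes were thus both raised, and Ngp and S100a9 passed with any single library left out. Without CJL number 8, 7 of the 11 passed.

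Of 14 macrophage and Kupffer cell genes 12 rose, against 13.2% of all genes, with a median of 1.35. Marco, a scavenger receptor, was at 69.2, 145 and 444 CPM against 3.37 to 10.7 CPM (median 8.33) (4.58 ± 0.46, adjusted p = 5.7e-05). Vsig4, the complement receptor of Kupffer cells, was at 45.7, 69.2 and 106 CPM against 19.0 to 31.7 CPM (median 21.4) (1.49 ± 0.21, adjusted p = 0.00053). The defining Kupffer cell gene Clec4f reached 94.9, 215 and 183 CPM against 76.0 to 121 and did not pass (adjusted p = 0.081; 0.013 without number 3). Here 12:12 number 5, the liver with the least Cd79a of the 3, exceeded 12:12 number 3: the summed list stood at 679, 1380 and 2104 CPM, against 356 to 620 in clean livers. Without CJL number 8 only 2 of the 14 passed.

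Markers of other cell types passed in smaller numbers than those of neutrophils and macrophages, to be read against 13.2% of all genes higher and 2.70% lower. T and NK cell genes summed to 13.8, 17.1 and 29.5 CPM against 10.9 to 16.1 in clean livers. Of 14 tested, Cd2 rose (3.11, adjusted p = 4.4e-05). B-lineage cells of mice also express Cd2, and Cd79a chose the groups, so its p-value is a description only. Cd3d fell by 1.87 on the log2 scale (adjusted p = 0.046), a call lost in 9 of the 10 fits with 1 library left out. Cd3e, a defining T cell gene, was at or below 0.284 CPM in every male liver. Erythroid genes, a gauge of blood in the tissue, summed to 1049, 2691 and 1120 CPM against 1249 to 2101, so that 2 of the 3 infiltrated livers were below all clean ones. Endothelial genes rose in 3 of 14 (Pecam1, Lyve1 and Cdh5) and stellate cell genes in 1 of 13 (Dcn); these 4 calls were lost without CJL number 8, that of Dcn also without number 3 and that of Cdh5 in 7 of the 10 fits with 1 library left out. Pancreatic acinar markers summed to at most 1.48 CPM and adipocyte markers to at most 1.11 CPM in any male liver. Of 8 plasma cell genes tested 2 rose and 2 fell. Irf4 (4.30) and Mzb1 (4.81), which B cells also express, rose, and their calls are likewise a description only. The IgA heavy chain Igha fell by 1.79 on the log2 scale (4.66, 4.49 and 1.95 CPM against 5.73 to 22.4, adjusted p = 0.011, and 0.14 without CJL number 8). Igj fell by 1.22 (adjusted p = 0.015), a call lost without number 3 or CJL number 8.

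**Figure D2:**
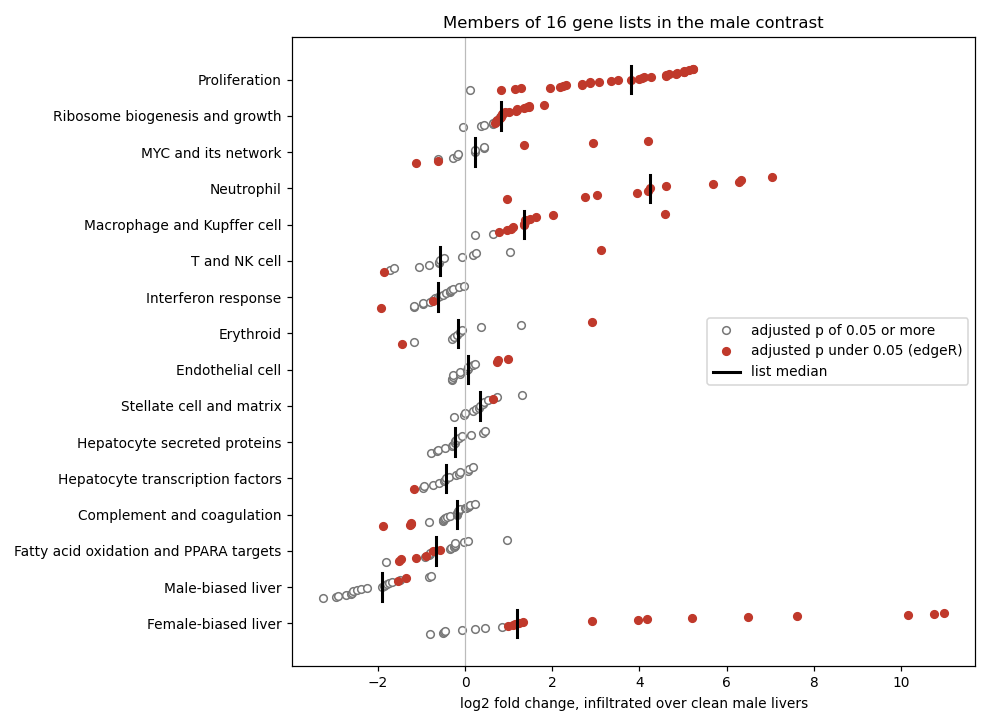
Log2 fold changes of infiltrated over clean male livers for the tested members of 16 gene lists. Each point is a gene, filled where the edgeR adjusted p is under 0.05, and bars are list medians. Proliferation and neutrophil genes have medians of 3.80 and 4.24, male-biased genes lie to the left of 0 with a median of -1.92 although 2 of them passed, and female-biased genes reach from below 0 to far above it.

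Sex-biased genes of the liver differed widely among the 3 infiltrated livers. In 12:12 number 3 and CJL number 8 all 21 male-biased genes of the list were below every clean male liver, and in 12:12 number 5, which also passed the Cd79a limit, 9 of the 21 were. The summed level of the list was 1725 CPM in number 3, 31205 CPM in number 5 and 4986 CPM in CJL number 8, against 30431 to 46168 CPM in the clean livers. Female-biased genes went the other way. Of 22 tested, 16 were above every clean male in number 3, 5 in number 5 and 15 in CJL number 8. The 3 livers therefore fell apart: number 3 and CJL number 8 held far less of the male-biased transcripts than any clean liver, and the sum in number 5 lay inside the clean range, near its lower end. This split was seen in the values and is not a grouping of the study.

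Mup20, the pheromone darcin of male urine, at chr4:62011337-62054143, was at 14.0, 506 and 8.24 CPM in the infiltrated livers and at 929 to 1698 CPM (median 1381) in the clean ones. Clean females ranged over 8.95 to 23.8 CPM (median 16.2), so number 3 lay within the female range and CJL number 8 just below it. The fitted difference was -3.25 ± 1.24 on the log2 scale and did not pass (adjusted p = 0.10). Without number 5 it was -7.07 (adjusted p = 1.1e-06), without number 3 -2.71 (adjusted p = 0.16) and without CJL number 8 -2.32 (adjusted p = 0.36). The other major urinary protein genes behaved alike. Mup7 was at 36.3, 4078 and 24.2 CPM against 4271 to 10539, and its fit did not pass either (-2.91, adjusted p = 0.18). In the GENCODE vM21 transcripts, 50.5% of the 50-base words of Mup20 and 90.2% of those of Mup7 also occur in another gene, so reads can be shared within this family.

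Male-biased genes with no such shared word were likewise lower in numbers 3 and 8 than in number 5. C6, a protein of the complement attack complex with no shared 50-base word, was at 45.1, 247 and 55.9 CPM against 192 to 342 CPM (median 289) in clean males and 15.2 to 27.5 CPM (median 22.6) in clean females (-1.50 ± 0.49, adjusted p = 0.056). Elovl3, an elongase of very long fatty acids, also without a shared word, was at 0.207, 24.1 and 0.868 CPM. Its clean levels did not overlap between the lightings, from 12.7 to 34.0 CPM under 12:12 lighting and from 131 to 265 CPM under CJL. Hsd3b5, a keto-steroid reductase of male liver, stood at 2.13, 213 and 1.19 CPM against 205 to 306, and Cyp4a12a, a fatty acid hydroxylase under androgen control, at 6.79, 250.1 and 2.46 CPM against 288 to 779; 21.2% and 48.9% of their words are shared. These 3 genes did not pass (adjusted p = 0.37, 0.28 and 0.15). C6 and these 3 each passed without number 5 (adjusted p at most 4.1e-05). Number 5 was left out with its values known, so these p-values are a description only. None of these genes passed without number 3 or without CJL number 8. Adjusted p was 0.146 and 0.42 for C6, 0.53 and 0.79 for Elovl3, 0.38 and 0.69 for Hsd3b5 and 0.24 and 0.47 for Cyp4a12a.

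In the test over all 10 livers, 2 of the 21 male-biased genes passed as lower and none as higher, against 2.70% and 13.2% of all genes, with a list median of -1.92. On the same 10 livers 10 of the 21 passed as lower with DESeq2 (median -1.93), 19 with limma-voom (median -3.60) and 13 with Cd79a as a continuous covariate, and none as higher. Of all 16454 genes 1278, 869 and 1519 were lower in these fits. The 2 were Ugt2b38, a glucuronosyltransferase (40.6, 71.8 and 16.9 CPM against 80.4 to 147, -1.54 ± 0.37, adjusted p = 0.017), and Gstp1, a glutathione transferase (266, 867 and 289 CPM against 841 to 1661, -1.36 ± 0.40, adjusted p = 0.039). Of the words of these 2 genes 37.4% and 62.3% are shared. Cyp7b1, an oxysterol hydroxylase, fell short (-1.86 ± 0.61, adjusted p = 0.060). The calls changed with the liver left out: all 21 passed without number 5, with a median of -5.08, none passed without number 3 (median -1.49) and none without CJL number 8 (median -1.28). Of all genes tested, 1663 of 16341, 63 of 16164 and 6 of 16089 were lower in these fits. Within 12:12 lighting none passed (median -1.26), and within CJL, with 1 infiltrated liver, the median was -5.63. Without the clean CJL number 7, 1 passed and the median was -1.92. The call of Gstp1 was lost in 9 of the 10 fits with 1 library left out.

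**Figure D3:**
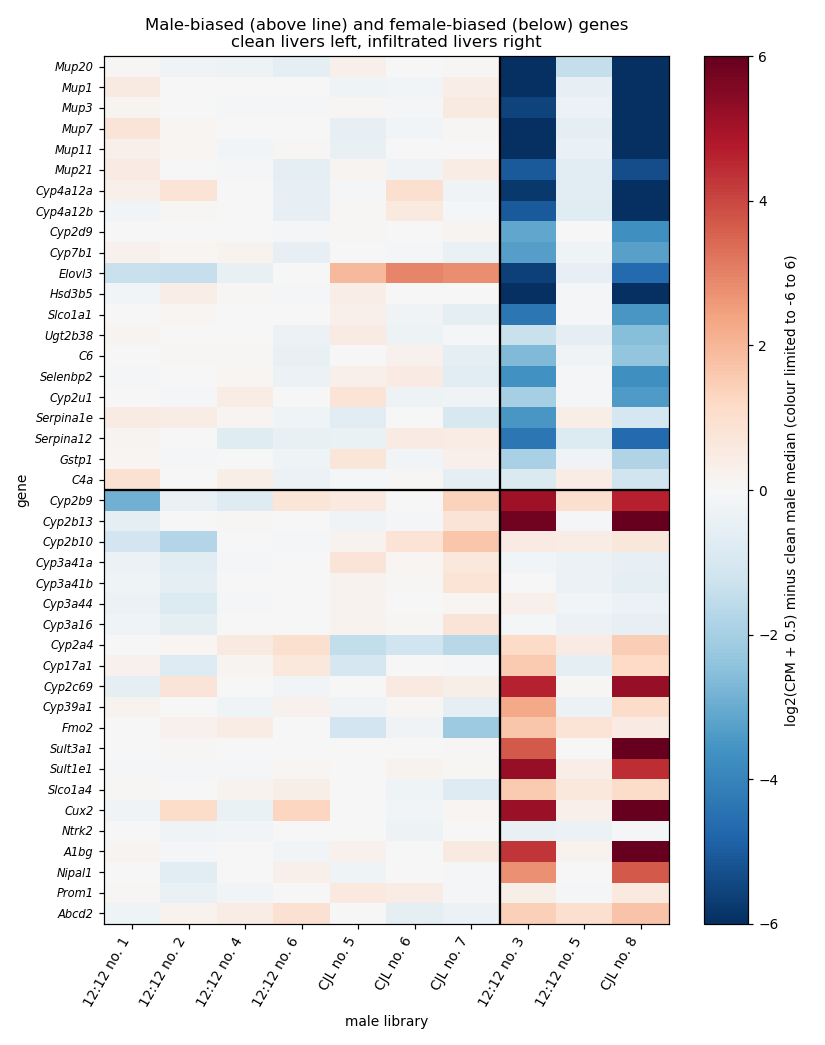
Heat map of 21 male-biased genes (above the line) and 21 female-biased genes (below it) in the 10 male livers. Colour gives log2(CPM + 0.5) minus the median of the clean males, limited to -6 and 6; the 7 clean livers are on the left and the 3 infiltrated livers on the right. Numbers 3 and 8 are blue above the line and mostly red below it, while number 5 is paler than both above the line.

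Of 26 female-biased genes 22 passed the filter on low counts. Of these 14 rose and none fell, against 13.2% and 2.70% of all genes, with a median of 1.19. Sult3a1 and Sult1e1 passed that filter only with both number 3 and CJL number 8 in the fit, so they had to differ; of the other 20, 12 rose and the median was 1.12. Cyp2b9, a cytochrome P450 of female liver at chr7:26173350-26210661, was at 454, 25.97 and 336 CPM in the infiltrated livers and at 1.29 to 34.4 CPM (median 12.9) in the clean ones. Number 5 lay inside the clean range and the other two above every clean male. The fitted rise was 4.18 ± 0.81 (adjusted p = 0.0065); it was 2.69 without number 3 (adjusted p = 0.054) and 4.46 without CJL number 8 (adjusted p = 0.061). Clean females held 604 to 931 CPM (median 773). Of the words of Cyp2b9 11.2% are shared with another gene.

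Cyp2b13, a close relative of Cyp2b9 with 27.3% shared words, was at 47.1, 0.305 and 74.7 CPM in the infiltrated livers, against 0.0626 to 0.936 CPM (median 0.353) in clean males and 243 to 553 CPM (median 381) in clean females. Numbers 3 and 8 stood above every clean male, and number 5 within their range. Slc22a26, an organic anion transporter, was at 246, 0.974 and 199 CPM against 0.568 to 1.01 in clean males and 231 to 296 CPM (median 254) in clean females. Cux2, a repressor of male-biased genes in female liver, was at 33.0, 0.670 and 60.4 CPM against 0.205 to 1.83 and 40.2 to 134 CPM (median 72.6). The rises were 6.50 ± 0.99, 7.29 ± 0.99 and 5.21 ± 1.00 on the log2 scale (adjusted p = 0.0016, 0.00078 and 0.0063), and their size rests on low clean levels. Cux2 no longer passed without number 3 (adjusted p = 0.065) or without CJL number 8 (adjusted p = 0.12); Slc22a26 and Cyp2b13 passed with any single library left out. Of the female-biased list, 7 of 20 tested passed without number 3, 3 of 20 without CJL number 8 and 15 of 22 without number 5. Within 12:12 lighting 1 of 19 did. Of all genes tested, 1583 of 16164, 642 of 16089, 4390 of 16341 and 748 of 15774 passed in these fits.

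The 2 livers differed from each other in some of these genes. A1bg, a plasma protein of the immunoglobulin fold, was at 10.6 CPM in number 3 and 638 CPM in CJL number 8, with number 5 at 0.142 and clean males at 0 to 0.319. Sult3a1, a sulfotransferase, was at 5.98 and 41.3 CPM, with no count in number 5. Sult1e1, an oestrogen sulfotransferase, was at 19.7 and 11.2 CPM, 0.203 in number 5 and at most 0.122 in clean males. Its fitted rise was 7.61 ± 1.01, given without a test because the gene passed the low-count filter only with number 3 and CJL number 8 present. In females Sult1e1 rose by 4.68 ± 0.83 on the log2 scale (adjusted p = 0.00060). Cyp2c69, with 54.8% shared words, was closer (324 and 492.7 CPM, 13.6 in number 5, 8.62 to 21.9 in clean males). Cyp2a4, a steroid hydroxylase, reached 543 and 683 CPM, against 75.3 to 468 in clean males and a median of 2687 CPM in clean females, and stayed below every clean female. The 4 tested Cyp3a genes of the list, Cyp3a41a, Cyp3a41b, Cyp3a44 and Cyp3a16, did not pass, with log2 fold changes between -0.51 and -0.07. B-lineage, neutrophil and cell cycle transcripts were higher in these livers as well as in number 5, and their part in the sex-biased result was not tested.

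**Figure D4:**
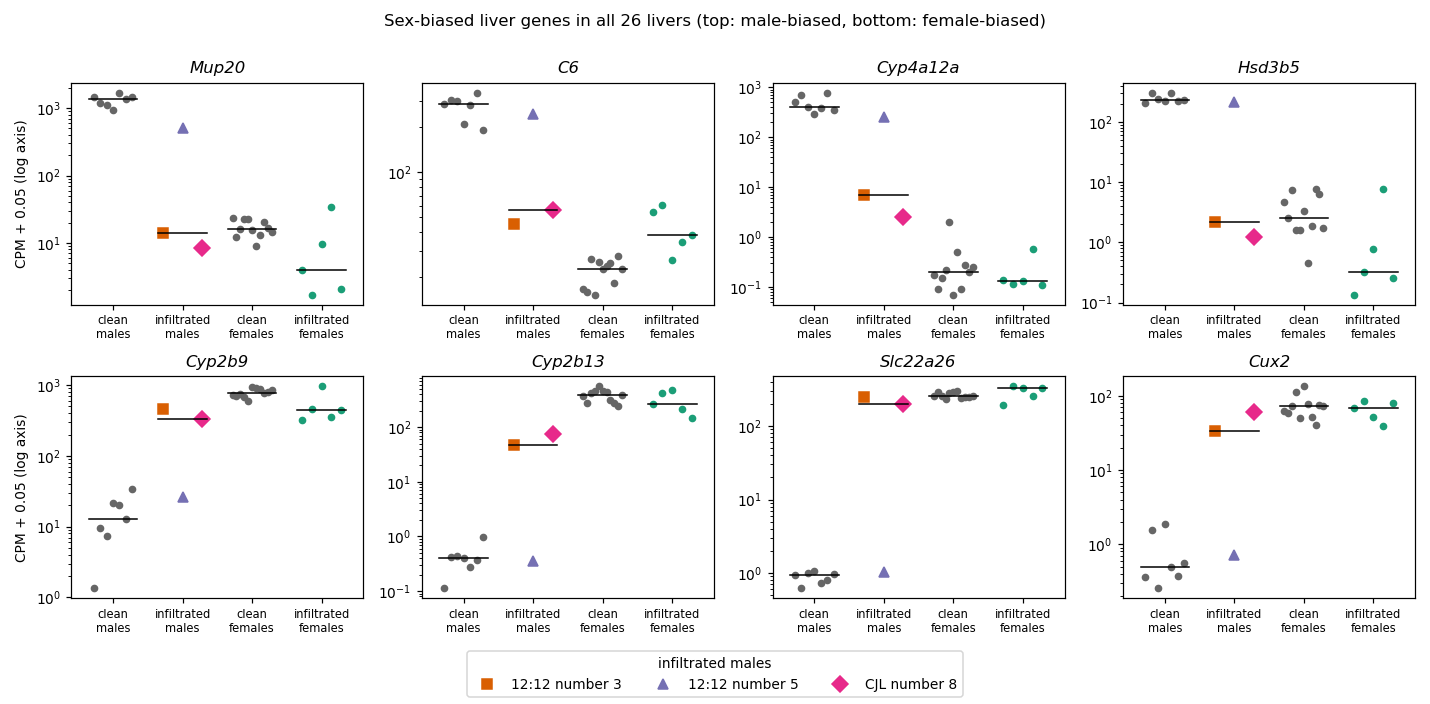
Levels of 4 male-biased genes (upper panels) and 4 female-biased genes (lower panels) in all 26 livers, in CPM plus 0.05 on a log axis. Grey points are clean livers, green points infiltrated female livers, coloured symbols the 3 infiltrated male livers, and lines group medians. Numbers 3 and 8 lie within or near the female range for Mup20, Hsd3b5, Cyp2b9, Slc22a26 and Cux2 and between the sexes for C6, Cyp4a12a and Cyp2b13, and number 5 lies nearer to the clean males than they do.

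Within the growth hormone axis 1 of 16 tested genes rose and 1 fell, against 13.2% and 2.70% of all genes. Counts this small do not set the list apart. Igfbp1, an IGF-binding protein of the liver that insulin represses, was at 84.2, 6.76 and 188 CPM against 1.54 to 15.5 CPM (median 7.89) (3.23 ± 0.65, adjusted p = 0.0078). Bcl6, a male-biased repressor that acts against STAT5 at shared sites, was at 3.89, 10.05 and 4.04 CPM against 10.02 to 59.7 CPM (median 17.7) (-2.38 ± 0.66, adjusted p = 0.033). For Bcl6, numbers 3 and 8 were below every clean liver and number 5 was next to the lowest clean one. Its call was lost without 12:12 number 1, number 3 or CJL number 8, and that of Igfbp1 without number 3 or CJL number 8. The receptor Ghr was at 170.3, 437 and 391 CPM against 278 to 464 (-0.41 ± 0.26, adjusted p = 0.29), Stat5b at 35.6, 31.2 and 38.9 CPM against 27.0 to 50.3 and Igf1 at 262, 301 and 188 CPM against 245 to 334 (adjusted p = 0.87 and 0.11). Igf1 passed as lower without number 5 (adjusted p = 0.043), and not without number 3 or CJL number 8 (adjusted p = 0.22 and 0.62). Ghr was lowest of all males in number 3 and ordinary in CJL number 8. The prolactin receptor Prlr, a female-biased gene that was named after its values were seen, was at 236, 123 and 502 CPM against 82.8 to 116 (1.33 ± 0.29, adjusted p = 0.0098; 0.21 without CJL number 8).

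STAT5 binds the palindrome TTCNNNGAA, which reads the same on both strands. In the RefSeq promoters of GRCm38.p6, here 250 bases before to 50 after the start site, 8.30% of 32851 windows hold it, which belong to 2582 of 27025 genes, and among the genes tested in males 994 of 11456 have it. It occurred in at least 1 promoter of 4 of 15 matched genes of the growth hormone axis, 3 of 20 female-biased genes and none of 13 male-biased genes. The promoters of the repressor that fell, of the female-biased gene with the widest spread between the 2 livers and of the marker P450 are shown, with the palindrome in capitals.
Bcl6 (chr16:23981234-23981533, minus strand): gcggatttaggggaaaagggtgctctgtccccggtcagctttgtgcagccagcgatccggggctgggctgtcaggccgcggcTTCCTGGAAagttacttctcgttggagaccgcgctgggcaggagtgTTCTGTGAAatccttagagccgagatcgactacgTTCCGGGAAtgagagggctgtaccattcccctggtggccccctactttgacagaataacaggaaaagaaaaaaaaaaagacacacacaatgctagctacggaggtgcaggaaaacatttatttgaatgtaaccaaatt
A1bg (chr15:60921221-60921520, minus strand): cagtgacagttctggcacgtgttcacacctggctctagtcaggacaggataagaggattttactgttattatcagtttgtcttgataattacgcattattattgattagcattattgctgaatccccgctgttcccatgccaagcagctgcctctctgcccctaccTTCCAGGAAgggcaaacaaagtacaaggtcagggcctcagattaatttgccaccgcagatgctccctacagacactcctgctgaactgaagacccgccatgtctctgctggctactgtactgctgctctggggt
Cyp2b9 (chr7:26173159-26173458, plus strand): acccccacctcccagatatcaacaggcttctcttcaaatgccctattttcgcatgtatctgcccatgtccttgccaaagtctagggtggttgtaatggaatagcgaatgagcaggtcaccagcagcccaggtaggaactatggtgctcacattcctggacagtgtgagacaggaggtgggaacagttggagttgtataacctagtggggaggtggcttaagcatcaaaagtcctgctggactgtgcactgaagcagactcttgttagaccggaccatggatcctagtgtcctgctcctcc
The Bcl6 window, from the second of 2 annotated start sites, holds 3 matches beginning 168, 122 and 88 bases before the start site, and the A1bg window 1 match 84 bases before it. The window of the other Bcl6 start site holds 1 match, 118 bases before it. In the Cyp2b9 window these letters do not occur. A match describes the letters only.

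Lists of other hepatocyte functions had medians closer to 0. Of 14 secreted proteins none passed, at a list median of -0.24, with 1 higher and 3 lower at an unadjusted p under 0.05. With DESeq2 1 was lower, as were 1278 of all 16454 genes. In edgeR Alb had a log2 fold change of 0.47 ± 0.18 (adjusted p = 0.097) and Ttr of -0.79 ± 0.28 (adjusted p = 0.074). Both passed without number 5 (0.62 and -1.06, adjusted p = 0.026 and 0.016). Neither did without number 3 (adjusted p = 0.25 and 0.16) or without CJL number 8 (adjusted p = 0.62 and 0.53). Of 15 hepatocyte transcription factors Foxa1 fell by 1.17 on the log2 scale (adjusted p = 0.039), at a median of -0.44. In complement and coagulation 4 of 24 fell and none rose, against 2.70% lower and 13.2% higher of all genes. C9, the pore-forming complement protein, was at 162, 391.7 and 41.5 CPM against 470.2 to 676 CPM (median 558) and fell by 1.88 (adjusted p = 0.030). C8b and C8a, its partners in the attack complex, fell by 1.27 and 1.24 (adjusted p = 0.024 and 0.046), and Mbl1, a mannose-binding lectin, by 1.23 (adjusted p = 0.021). The clean female medians of C8a, C8b and C9 were 126, 158 and 191 CPM, against 618, 561 and 558 in clean males. None of the 24 passed without number 3 or without CJL number 8. Without number 5, 8 passed as lower, in a fit where 1663 of 16341 genes tested were lower. The calls of Foxa1 and C8a were lost in 6 and 8 of the 10 fits with 1 library left out.

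Fatty acid oxidation and PPARA target genes fell in 6 of 20 and rose in none, at a median of -0.67. Of all genes 2.70% were lower and 13.2% higher, which applies to each list of this paragraph. Vnn1, a pantetheinase, was at 11.1, 40.1 and 9.17 CPM against 32.4 to 61.3 CPM (median 45.6) and fell by 1.51 on the log2 scale (adjusted p = 0.019), Creb3l3 by 0.89 (adjusted p = 0.039) and Hadha, of the mitochondrial oxidation cycle, by 0.59 (adjusted p = 0.038). Without CJL number 8 none of the 20 passed and without number 3 1 did. In bile handling Abcb4, the phospholipid exporter of bile, fell by 0.93 (adjusted p = 0.014) and the uptake carrier Slco1b2 by 0.96 (adjusted p = 0.042), 2 of 13 tested. Pklr, liver pyruvate kinase, Fbp1, of gluconeogenesis, and Otc, of the urea cycle, fell by 1.25, 0.80 and 0.95 (adjusted p = 0.028, 0.033 and 0.023), each alone in its list. Xenobiotic genes split, with Cyp2c37 higher (0.82, adjusted p = 0.041) and Cyp2f2 and Ugt2b5 lower (-1.34 and -1.22, adjusted p = 0.049 and 0.019) among 21. Each call named here was lost without number 3 and without CJL number 8. Those of Creb3l3, Hadha, Slco1b2, Fbp1, Cyp2c37 and Cyp2f2 were lost in 6 to 9 of the 10 fits with 1 library left out, and that of Pklr also without 12:12 number 2.

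Inflammatory genes did not rise together. The counts of this paragraph are to be read against 13.2% of all genes higher and 2.70% lower. Of 19 interferon response genes none rose and 2 fell, the chemokine Cxcl9 (0.766, 4.69 and 2.63 CPM against 4.62 to 20.1, adjusted p = 0.034) and B2m, the light chain of MHC class I (719, 894 and 622 CPM against 975 to 1245, adjusted p = 0.024). For Cxcl9 number 5 lay inside the clean range, and its call was lost in 7 of the 10 fits with 1 library left out. All 19 had log2 fold changes below 0, at a median of -0.62. Without number 5, 11 of the 19 passed as lower, in a fit where 1663 of 16341 genes tested were lower. None of the 19 did without number 3 or without CJL number 8. Among 23 acute phase genes Apcs, serum amyloid P, rose (254, 41.7 and 246 CPM against 32.9 to 74.4, adjusted p = 0.013), a call lost without number 3 or CJL number 8. The metallothionein Mt1 was at 569.9, 32.5 and 864 CPM against 4.31 to 98.4, with numbers 3 and 8 above all clean males, and did not pass (adjusted p = 0.058). For Mt1 adjusted p was 0.0065 without number 5, 0.19 without number 3 and 0.51 without CJL number 8. Of the immediate early genes Fosb, Nr4a1 and Egr1 rose, 3 of 12 (adjusted p = 0.00077, 0.014 and 0.029); Egr1 was at 3.75, 10.3 and 64.1 CPM against 2.50 to 6.08, with number 3 inside the clean range. These calls were lost without CJL number 8, and that of Egr1 also without CJL numbers 5, 6 or 7. None of 18 clock genes, 11 iron genes and 9 mitochondrially encoded genes passed in edgeR. There 4, 2 and 1 had an unadjusted p under 0.05, as did 5392 of all 16454 genes tested. With DESeq2 3, 1 and 1 passed, against 3773 of 16454. The clock factor Arntl was at 25.3, 2.23 and 17.7 CPM in livers whose hour of collection is not given, and clean livers ranged from 0.772 to 23.5 CPM.

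The lower genes with the smallest p were few and their falls modest. Arrdc3, an arrestin-domain protein, was at 54.2, 79.4 and 48.9 CPM against 91.0 to 166 CPM (median 122) (-1.23 ± 0.22, adjusted p = 0.0031) and passed with any single library left out. Id2, an inhibitor of helix-loop-helix factors, was at 34.2, 41.2 and 25.7 CPM against 41.8 to 90.1 (-1.05 ± 0.20, adjusted p = 0.0047), Ly6a, the surface antigen Sca-1, at 3.19, 3.76 and 2.67 CPM against 5.22 to 11.002, and Creld1 at 22.5, 24.2 and 17.3 CPM against 29.9 to 39.1 (adjusted p = 0.0053 and 0.0056). Lrrc16a, a regulator of actin capping, was at 4.78, 20.2 and 11.1 CPM against 21.3 to 40.9 in clean males and 3.72 to 8.89 CPM (median 5.97) in clean females. LOC105245165, Gm35665, Nudt13, LOC545966 and Nat6 completed the 10, with log2 fold changes between -2.45 and -0.73. Apart from Arrdc3 and LOC545966, these calls were lost without CJL number 8.

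The 16 female livers, which the male grouping did not use, were split by the same Cd79a limit into 5 infiltrated and 11 clean. There 5406 of 16423 genes passed, 19.4% of those tested as higher and 13.5% as lower. Proliferation genes (30 of 31 higher, median 3.55), neutrophil genes (11 of 11, median 4.84), ribosome genes (26 of 27, median 0.93) and macrophage genes (13 of 14, median 1.00) rose in females as in males. Myc rose by 3.48 ± 0.36 (adjusted p = 3.4e-06), a description only, as in males. Interferon response genes fell in 16 of 19 (median -0.81), as against 2 of 19 in males. Cholesterol synthesis genes fell in 18 of 19 tested in females (median -1.27), while in males none fell, 1 rose and the median was -0.36.

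The sexes parted over some of the female-biased genes and over 1 of the 21 male-biased genes tested, C6. Female-biased genes fell in 8 of 26 tested in females and rose in 1, at a median of -0.52. Cyp2b9 was at 323 to 958 CPM (median 451) in infiltrated females and had a log2 fold change of -0.81 ± 0.19 (adjusted p = 0.0029), from the clean female level given above. The difference between the male and the female contrast was tested directly in a model of all 26 livers. It passed for 37 of 17673 genes, 35 with a higher value in males (0.198%) and 2 with a lower one (0.0113%). Of these 35, 10 were among the female-biased genes listed. For Cyp2b9 it was 4.97 ± 0.77 (adjusted p = 0.0024), for Cyp2b13 6.88 ± 0.92 (adjusted p = 0.0010), for Slc22a26 7.25 ± 0.88 (adjusted p = 0.00060) and for Prlr 1.96 ± 0.30 (adjusted p = 0.0015), all as log2 differences. The 2 lower genes were C6 (-2.38 ± 0.46, adjusted p = 0.016), which rose in females (0.84 ± 0.16, adjusted p = 0.00063), and Bmyc, a MYC relative without a DNA-binding domain (-2.02 ± 0.42, adjusted p = 0.032). Neither the proliferation, neutrophil, ribosome, macrophage nor interferon list, nor the cholesterol list, held a gene that passed this test.

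The male-biased list in females fell in 7 of 20 tested and rose in 1, at a median of -1.15, from levels that were already low: Mup20 ranged over 1.66 to 34.7 CPM (median 3.93) in infiltrated females (-0.98 ± 0.65, adjusted p = 0.27). For Mup20 the difference between the sexes was -2.31 ± 1.31 (adjusted p = 0.72). The 37 genes became 6 without male CJL number 8, 12 without male 12:12 number 3 and 227 without male 12:12 number 5.

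**Figure D5:**
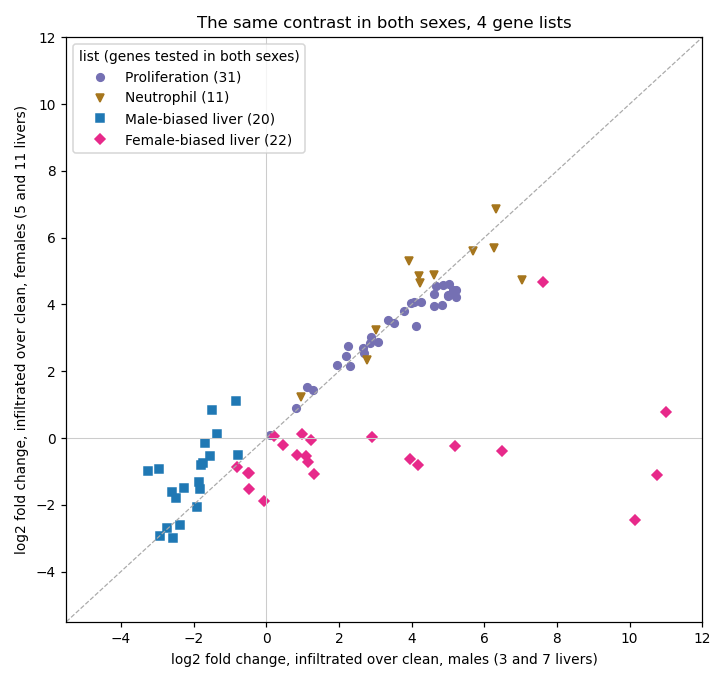
Log2 fold change of infiltrated over clean livers in males (horizontal axis) and females (vertical axis) for the genes of 4 lists tested in both sexes; the dashed line marks equal values. Proliferation and neutrophil genes lie along the line, and most female-biased genes with a rise in males lie near or below 0 in females; Sult1e1 (7.61 in males, 4.68 in females) does not.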

How the data were processed

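Livers were sequenced as stranded mRNA libraries. The deposited table holds expected counts of reads per gene name and library, not normalized by the authors; per the submitters' processing notes STAR, DESeq2 and the mm10 build were used, while for versions, the counting tool, its strand setting and the annotation the sources used here state nothing. Of its cells, 45.82% held 0.015, set here to 0, and 1.44% were not whole (tolerance 1e-06), so expected counts were rounded. Its 36930 lines held 36883 names, and lines sharing a name were summed.

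Males and females were fitted separately with edgeR 4.0.16 (R 4.3.3): filterByExpr with a count minimum of 10, TMM scaling and quasi-likelihood F tests with lighting as covariate, adjusted by Benjamini and Hochberg. The difference between the sexes came from a model of all 26 libraries. SE is the log2 fold change divided by the square root of F. CPM is the count over the library total. A floor of 3 counts covers counting error only. The male pair least different had a chi-square of 28.8 per degree of freedom, so none was a copy.

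Of 569 entries in 37 gene lists, 566 were found. Groups, genes and lists were chosen with earlier results of these data known. Named were the 4 marker genes and Myc, the 10 higher and 10 lower genes of smallest p that passed with a mean of at least 1 CPM, the 10 higher ones outside the B cell, plasma cell, MYC, ribosome and proliferation lists, up to 4 members per list by p, and 5 genes per direction for the difference between the sexes. Genes beyond this rule, among them Mup7, Elovl3, Hsd3b5, Cyp4a12a, Cux2, Cyp2c69, Cyp2a4, Prlr, Ghr, Stat5b, Alb, Ncl, Ldha, Tk1, Mcm2, Pcna, S100a9, Clec4f and Cd3e, were chosen after their values were seen. Sequences and positions are RefSeq's for GRCm38.p6, the assembly of mm10. Alternatives used DESeq2 1.42.0, limma 3.58.1, other scalings and filters, and libraries left out in turn. Results of some genes are not reported here. The tests were tried on simulated counts first.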

Additional observations from a re-analysis of the deposited data

Results flagged for a closer look

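Beside Prlr, named in the report, the test of the difference itself separated the male from the female contrast for these female-biased genes (edgeR quasi-likelihood test, log2 values, male minus female): Cyp2b9 4.97 (adjusted p = 0.0024), Cyp2b13 6.88 (adjusted p = 0.0010), A1bg 12.65 (adjusted p = 0.0049), Cux2 5.40 (adjusted p = 0.0068), Slc22a26 7.25 (adjusted p = 0.00060) and Cyp2c69 4.56 (adjusted p = 0.0017). It also did so for 2 genes lower in males, C6 at -2.38 (adjusted p = 0.016) and Bmyc at -2.02 (adjusted p = 0.032).

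Single libraries stood far from the rest of their group for 14 named genes. The clean males and the infiltrated females were each screened for the 47 followed genes. Chance marks about 1 group in 20 where values spread normally, which was not checked for these CPM. Among the 5 infiltrated females, CJL number 5 was highest for the male-biased genes Mup20 (34.7 CPM), Ugt2b38 (84.4 CPM), Cyp4a12a (0.522 CPM) and Elovl3 (2.51 CPM) and apart for Cyp2c69 (1643 CPM). CJL number 2 stood apart for Cyp2b9 (958 CPM) and Bcl6 (61.5 CPM), CJL number 6 for A1bg (284 CPM), and 12:12 number 7 for the Kupffer cell genes Marco (690.3 CPM) and Vsig4 (189 CPM). Among the 7 clean males, 12:12 number 2 stood apart for Mpo (0.101 CPM) and Apcs (74.4 CPM), CJL number 7 for Cyp2b13 (0.936 CPM) and 12:12 number 1 for Id2 (90.1 CPM).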

How the results depend on the processing

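The male count of 2617 genes ranged from 642 without CJL number 8 (636 higher, 6 lower) to 4390 without 12:12 number 5 (2727 higher, 1663 lower) when each library was left out. It was 4431 with Cd79a as a continuous covariate, 4942 in a fit of all 26 libraries and 748 within 12:12 lighting. Other scalings, no low-count filter, DESeq2, limma-voom and no lighting covariate gave 1820 to 3773. Of the calls, 83.0% were higher, against 66.1% with DESeq2, 71.8% with limma-voom and 73.2% when libraries were scaled on hepatocyte secreted proteins. That scaling moved the median of all genes to -0.27. Under it female-biased genes had 9 of 22 higher (median 0.87) and male-biased genes 1 of 21 lower (median -1.97). These medians and calls still contain the shift. Limits of 4 and 16 CPM of Cd79a gave the same male groups. The female count of 5406 kept between 4062 and 5882 with each library left out, and with the replicate number as a block (replicate block) it was 1110. No paired analysis was possible because the male lightings share only 2 numbers, so no such male fit has residual degrees of freedom. The 37 genes that differed between the sexes were 104 with DESeq2 and 22 with limma-voom, and 6 (without male CJL number 8) to 227 (without male 12:12 number 5) with 1 library left out; it was 12 without male 12:12 number 3. Of 1209 values for 47 followed genes, no direction turned, and 156 calls were lost and 23 gained. Genes outside these 47 could turn: Lef1 had a log2 fold change of 2.85 over all male livers and of -0.91 without CJL number 8. Among 120 named genes that passed in males, 44 passed with any single library left out. The cause of these shifts was not tested. With 3 infiltrated males, of which 1 lived under jet lag, the p-values cover only the spread between these samples.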
